A study of Rattus norvegicus with 9 samples.

Results

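The genes described are receptors of the PPAR, RXR and RAR families and the proteins that modulate them: Ppara, Ppard, Pparg, Rxra, Rxrb, Rara, Ppargc1a, Ppargc1b, Ncoa1 and Ncor1. They were chosen by name, and every array probe carrying the gene's symbol or one of its RefSeq transcripts was taken, which gave 14 probes of 10 genes among 41012 probes of 35679 genes or unnamed transcripts. The RNA came from peripheral blood mononuclear cells (PBMC), the lymphocytes and monocytes collected from a Ficoll gradient. In the cafeteria group, 5 male Wistar rats received a hypercaloric, fat-rich cafeteria diet beside chow from 2 months of age, for 4 months. In the control group, 4 male Wistar rats of the same age received chow alone. Another chow-fed animal yielded little RNA and is not analysed here. All animals were bled in the fed state at 6 months, and each has 1 array of its own. Each array set Cy5-labelled RNA of 1 animal against a Cy3-labelled pool of all samples, so each level below is a log2 ratio to that pool and each difference is cafeteria minus control on the log2 scale.

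PPARs are nuclear receptors that fatty acids and their derivatives activate. They bind DNA as heterodimers with an RXR, at direct repeats of the half-site AGGTCA separated by 1 base. RARs, the receptors for retinoic acid, also pair with RXR. Bound receptors exchange corepressors such as Ncor1 for coactivators such as Ncoa1, Ppargc1a and Ppargc1b. In white blood cells, Ppard and Pparg are known for roles in lipid handling and in the restraint of inflammatory genes, chiefly in macrophages.

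Promoters of all 10 genes were found in the RefSeq promoter table (GRCr8 build, 300 bases around each annotated start). The half-site AGGTCA, searched on both strands, was in 0 of the 10, against 16.2% of 33469 promoters of the same length. The GC box GGGCGG, also searched on both strands and known to be bound by Sp1, was in 8 of the 10 (80%), against 33.1% of all promoters. The exact repeat of AGGTCA with any 1 base between was in 0 of the 10 and in 0.0538% of all. The exceptions to the GC box were Ppard and Ppargc1a. Among 35 promoters of PPAR targets, AGGTCA was in 9 (25.7%) and its exact repeat in 0. The promoter of Ppargc1b is shown because that gene had the lowest p of the 8 genes measured. That of Slc27a2, a PPAR target, is shown because Slc27a2 differed most among the targets. Capitals mark GGGCGG or its reverse complement in the first and AGGTCA or its reverse complement in the second, and both read 5′ to 3′ along the gene's strand. A match describes the letters and shows no binding.
Ppargc1b, chr18:57131417-57131716, minus strand: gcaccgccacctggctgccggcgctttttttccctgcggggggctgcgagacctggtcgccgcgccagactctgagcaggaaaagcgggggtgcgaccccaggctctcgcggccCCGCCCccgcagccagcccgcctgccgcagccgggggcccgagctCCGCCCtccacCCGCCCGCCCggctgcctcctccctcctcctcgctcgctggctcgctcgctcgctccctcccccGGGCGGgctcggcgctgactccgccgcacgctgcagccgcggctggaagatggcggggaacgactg
Slc27a2, chr3:134257851-134258150, plus strand: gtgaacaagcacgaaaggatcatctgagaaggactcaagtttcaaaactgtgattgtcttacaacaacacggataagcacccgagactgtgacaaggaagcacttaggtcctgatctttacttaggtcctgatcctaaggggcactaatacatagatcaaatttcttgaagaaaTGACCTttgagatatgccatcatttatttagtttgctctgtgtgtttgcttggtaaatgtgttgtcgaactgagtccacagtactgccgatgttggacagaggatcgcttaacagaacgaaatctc
The Ppargc1b promoter held 5 matches, counting ones that overlap, and the Slc27a2 promoter 1.

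On each array 58.8% to 66.7% of non-control spots had clear Cy5 signal over background, and 25808 probes were tested. No array pair held identical values. The 9 arrays lay on 7 slides, as the file headers number them, and 2 slides carried an array of each group. Each slide pair compares 1 cafeteria with 1 control animal. Some arrays held a few spots far darker than their surroundings, and these changed the background correction of dim probes. The reported values leave such spots out, a choice made after values with them had been seen, and both values are given for each difference above 0.05 in size, among the genes named, that moved by over 1.5 times.

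Of the 10 genes, 8 were measured above background in these cells (12 probes). Ppara and Ppargc1a were not well above background on any array. None of the 12 probes passed the adjusted threshold of 0.05 (limma, Benjamini-Hochberg over all probes), and 0 of 25808 probes did (0%). The lowest adjusted p among the 12 was 0.538. At an unadjusted p under 0.05, 3 of the 12 differed, all of them lower in cafeteria animals, against 5.68% of all probes (3.8% lower and 1.88% higher). These were 1 probe of Ppargc1b and 2 of Ncor1, and the count was 2 without control 1 or without cafeteria 10 and 2 to 4 over all animals left out in turn. Group values did not overlap for 1 of the 12, lower in cafeteria animals, against 2.02% of all probes (0.81% higher and 1.21% lower). Differences were above 0 for 6 of the 12, against 52.6% of all probes. Among the brightest probes of the 8 genes, 4 differences were above 0 and 4 below, with a median of 0.0042, against 52.9% above 0 and a median of 0.0075 over all 22098 genes tested.

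**Figure D1:**
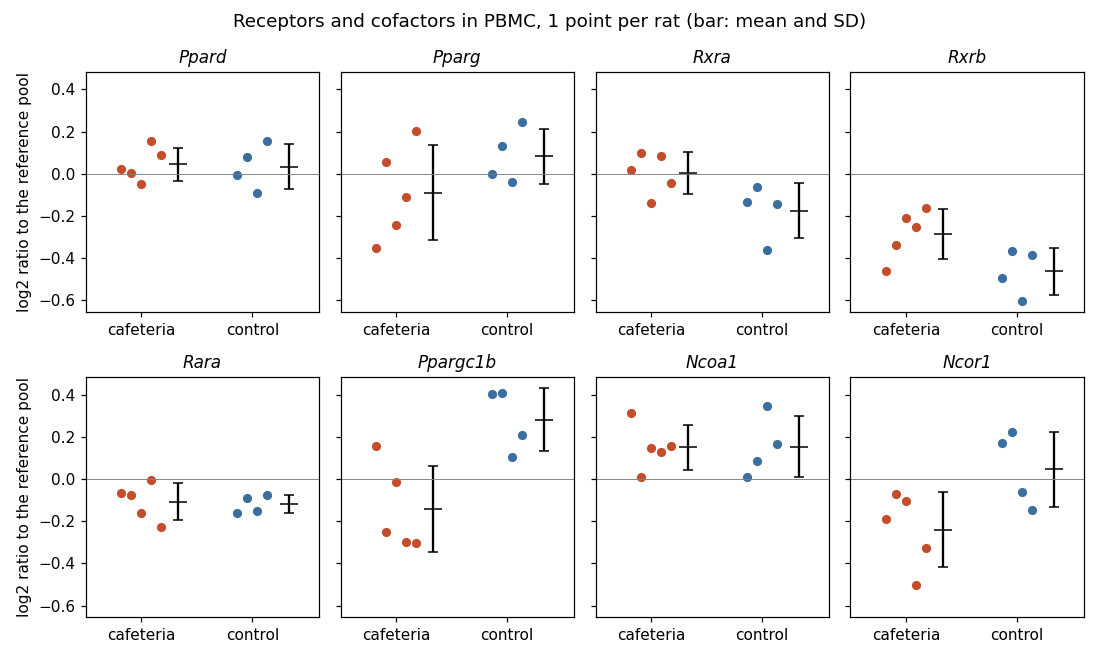
Log2 ratio to the reference pool (y axis) for the brightest probe of each of the 8 measured genes, 1 point per rat in the order of the animal numbers, cafeteria left and control right, with the mean and SD as a bar. Values of the groups overlap in every panel, and the groups lie furthest apart for Ppargc1b, at a mean of -0.14 in cafeteria and 0.28 in control animals.

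Ppara, the PPAR that drives fatty acid oxidation in liver, was probed at chr7:123807016-123807075 (rn4 build, as in the files) by 10 spots on every array. Only 3 of its 90 spots were well above background, 2 of them on the array of cafeteria 1 and 1 on that of cafeteria 10. Mean Cy5 intensity per array was 69.7 to 83.8 in cafeteria animals and 67.0 to 81.5 in control animals, that is 1.26 to 1.67 times the local background. Its log2 ratios were 0.03, -0.01, 0.01, 0.01 and 0.03 in cafeteria animals, against 0.08, -0.04, 0.02 and -0.02 in control animals. Both groups are below the level at which a difference could be read, so no fold is given. Without the filter on dim probes the fit gave 0.0048 (SE 0.05, limma adjusted p = 0.998).

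Ppard, the PPAR expressed in most tissues, was above background on all 9 arrays (chr20:6541732-6541791). Its 1 spot per array was dim, with Cy5 intensity 1.64 to 2.80 times the local background, the lowest within the range of Ppara. A difference near 0 on so dim a probe is weak evidence of no change. The gene had log2 ratios of 0.02, 0.01, -0.05, 0.15 and 0.09 in cafeteria animals, against -0.01, 0.08, -0.09 and 0.15 in control animals. The groups overlapped throughout and covered nearly the same range. The difference was 0.01 (SE 0.07, 95% interval -0.15 to 0.18, limma adjusted p = 0.996), and its sign turned under 8 of the alternatives of processing.

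Pparg, the receptor of the glitazone drugs and the driver of adipocyte differentiation, was probed at chr4:151600180-151600239 by 10 spots on every array, and all 90 spots were well above background. Its log2 ratios were -0.35, 0.06, -0.24, -0.11 and 0.20 in cafeteria animals, against 0.00, 0.13, -0.04 and 0.24 in control animals. Cafeteria 1 and cafeteria 7 were lowest, cafeteria 4 and cafeteria 13 lay among the control values, and the groups overlapped. The spots of 1 array share 1 RNA, labelling and hybridisation, and their SD of 0.06 to 0.12 (median 0.08) is the scatter between spots alone. The SD between animals was 0.22 among cafeteria and 0.13 among control animals. Of the 90 spots, 5 were left out as outliers. The difference was -0.17 (SE 0.12, 95% interval -0.43 to 0.09, limma adjusted p = 0.975), with a two-sided exact permutation p of 0.23, where the smallest that groups of 5 and 4 allow is 0.00794. This test was run for the 8 measured genes, and its p is given unadjusted. Without cafeteria 1 it was -0.11. Within the slides that held both groups it was -0.35 and -0.35, and -0.35 with slide as a block (limma adjusted p = 1).

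**Figure D2:**
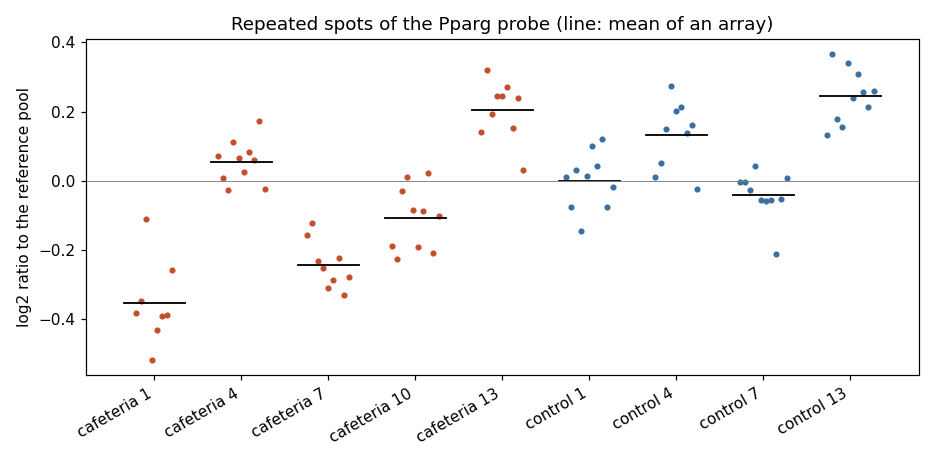
Log2 ratio (y axis) of each Pparg spot kept on each array (x axis, cafeteria left and control right), with the mean of the array as a line. Spots of 1 array scatter by an SD of 0.06 to 0.12, and array means run from -0.35 to 0.20 in cafeteria and from -0.04 to 0.24 in control animals.

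The RXRs are the common partners of PPAR and RAR. Rxra was probed at chr3:6689685-6689744, and its log2 ratios were 0.02, 0.10, -0.14, 0.09 and -0.04 in cafeteria animals, against -0.13, -0.06, -0.36 and -0.14 in control animals. Control 7 was lowest of the 9 and cafeteria 7 lay among the other controls. The probe was also dim, with Cy5 intensity 1.80 to 2.96 times the local background. The difference was 0.18 (SE 0.08, 95% interval -0.01 to 0.36, limma adjusted p = 0.893), with a two-sided exact permutation p of 0.0397. It was 0.12 without control 7, 0.11 with the background fitted on all spots, 0.02 from Cy5 alone and 0.39 from the log ratio of the scanner software. Within the slides with both groups it was 0.15 and 0.23.

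Rxrb was probed at chr20:4955532-4955591 on the minus strand. On the log2 scale its ratios were -0.46, -0.34, -0.21, -0.25 and -0.16 in cafeteria animals, against -0.49, -0.36, -0.60 and -0.39 in control animals. All 9 animals lay below the pool, and cafeteria 1 alone of the cafeteria animals lay within the range of the controls. The difference was 0.18 (SE 0.08, 95% interval -0.01 to 0.36, limma adjusted p = 0.903), with a two-sided exact permutation p of 0.0556. Within slides it was 0.04 and 0.13, and with slide as a block 0.08. The authors' deposited table gave 0.36, before centring its arrays, with the median of all probes at 0.13, and median centring gave 0.29.

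Rara, the retinoic acid receptor known for its part in myeloid differentiation, was probed at chr10:87749901-87750101, a span of 201 bases where most probes span 60. Ratios on the log2 scale were -0.07, -0.08, -0.16, 0.00 and -0.23 in cafeteria animals, against -0.16, -0.09, -0.15 and -0.08 in control animals. The cafeteria values enclosed the control values. The difference was 0.01 (SE 0.07, 95% interval -0.14 to 0.16, limma adjusted p = 0.996), the narrowest interval among the 8 genes, and its sign turned under 4 alternatives.

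Of the coactivators, Ppargc1a, known for mitochondrial biogenesis in muscle and brown fat, was not measurable. Its Cy5 intensity was 57.7 to 64.0 in cafeteria animals and 61.1 to 66.2 in control animals, or 1.06 to 1.23 times the local background, and 0 of 9 spots were well above it (chr14:64365667-64365726). The log2 ratios, -0.06, -0.18, -0.09, -0.04 and 0.00 in cafeteria animals, against 0.16, 0.06, -0.03 and 0.01 in control animals, carry no fold, since both groups lay at background. Without the filter on dim probes the fit gave -0.12 (SE 0.06, limma adjusted p = 0.997).

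Ppargc1b, the close relative of Ppargc1a that also drives mitochondrial genes, had the lowest p of the 8 genes measured. Its brighter probe, A_44_P116300 (chr18:57280683-57280742, minus strand), had log2 ratios of 0.16, -0.25, -0.02, -0.30 and -0.30 in cafeteria animals, against 0.40, 0.41, 0.10 and 0.21 in control animals. Cafeteria 1 lay between the control values, and the other cafeteria animals lay below all controls. The level was -0.14 ± 0.20 in cafeteria animals (SD, n = 5) and 0.28 ± 0.15 in control animals (SD, n = 4). The difference was -0.42 (SE 0.11, 95% interval -0.68 to -0.17, limma adjusted p = 0.538), that is 0.75-fold (interval 0.63 to 0.89), with an unadjusted p of 0.0039 and a two-sided exact permutation p of 0.0238. With the background fitted on all spots it was -0.27 (limma adjusted p = 0.997). Within slides it was -0.25 and -0.51. Leaving out each animal in turn gave -0.50 to -0.38.

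The dimmer Ppargc1b probe, A_44_P447999, was placed at chr18:57301024-57380295, a span of 79272 bases. It was above background on 8 of 9 arrays, and its log2 ratios were 0.05, -0.01, -0.20, 0.03 and 0.20 in cafeteria animals, against -0.09, -0.20, 0.01 and -0.03 in control animals. The difference was 0.09 (SE 0.09, 95% interval -0.10 to 0.28, limma adjusted p = 0.983), opposite in sign to that of the brighter probe, and 0.02 with the background fitted on all spots and 0.04 to 0.14 with each animal left out in turn. Across the 9 arrays both probes had a Pearson correlation of -0.59, given as a description over arrays that share the reference pool. The probes of this gene thus disagreed, and the lower values of the brighter probe were not seen with the dimmer one. The dimmer probe had Cy5 intensity 1.59 to 2.73 times the local background, against 4.84 to 11.4 times for the brighter. Its weak signal limits what this disagreement shows.

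Ncoa1, a histone acetyltransferase coactivator of nuclear receptors, had 2 probes. The brighter, A_44_P996204 (chr6:27226431-27226490, minus strand), had log2 ratios of 0.31, 0.01, 0.15, 0.13 and 0.16 in cafeteria animals, against 0.01, 0.09, 0.35 and 0.17 in control animals, and the groups covered the same range. The difference was 0.00 (SE 0.09, 95% interval -0.20 to 0.19, limma adjusted p = 0.998). The dimmer, A_44_P781559 (chr6:27225484-27225543), had log2 ratios of -0.08, 0.21, 0.03, 0.06 and 0.18 in cafeteria animals, against 0.09, 0.07, -0.21 and 0.10 in control animals, and control 7 lay far below the other controls. The difference was 0.06 (SE 0.09, 95% interval -0.14 to 0.27, limma adjusted p = 0.984). The probes lie close together, yet their ratios ran opposite across the 9 arrays (Pearson correlation -0.83).

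Ncor1, the corepressor that recruits histone deacetylase 3 to unliganded receptors, had 3 probes. The brightest, A_44_P551919 (chr10:48563723-48563782, minus strand), had log2 ratios of -0.19, -0.07, -0.10, -0.50 and -0.33 in cafeteria animals, against 0.17, 0.22, -0.06 and -0.14 in control animals. All cafeteria animals lay below the pool, control 13 lay among them and control 7 just above the highest. The difference was -0.29 (SE 0.11, 95% interval -0.53 to -0.04, limma adjusted p = 0.79), with a two-sided exact permutation p of 0.0556. It was -0.18 with median centring and -0.15 from the authors' deposited table. Within slides it was -0.36 and -0.36.

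A second Ncor1 probe, A_44_P974313, is placed at chr10:48576639-48585021, a span of 8383 bases. Its log2 ratios were 0.00, 0.02, -0.04, -0.15 and -0.05 in cafeteria animals, against 0.32, 0.27, 0.08 and 0.12 in control animals. All cafeteria animals lay below all control animals, which held for 1.21% of all probes. The difference was -0.24 (SE 0.07, 95% interval -0.41 to -0.08, limma adjusted p = 0.581), and -0.32 and -0.27 within slides. It was -0.12 with median centring, -0.06 from Cy5 alone and -0.07 from the authors' deposited table. Over the 9 arrays it followed the brightest probe with a Pearson correlation of 0.91.

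The last Ncor1 probe, A_44_P713311 (chr10:48480897-48480956), showed no such pattern. Its log2 ratios were -0.02, 0.02, -0.12, -0.10 and -0.03 in cafeteria animals, against -0.06, -0.01, 0.08 and -0.11 in control animals, and the difference was -0.03 (SE 0.07, 95% interval -0.18 to 0.12, limma adjusted p = 0.99). Its correlation with the other probes was 0.30 and 0.19. A further pair of probes that the files describe as N-CoR1 without naming the gene fell outside the rule. They lie at chr10:48483191-48483250 and chr10:48483311-48484921, near A_44_P713311. Their differences were -0.26 (SE 0.17, limma adjusted p = 0.975) and -0.28 (SE 0.15, limma adjusted p = 0.958), with overlapping groups. Control 13 stood at 0.63 on both, above every other animal, and without it the differences were -0.09 and -0.14.

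**Figure D3:**
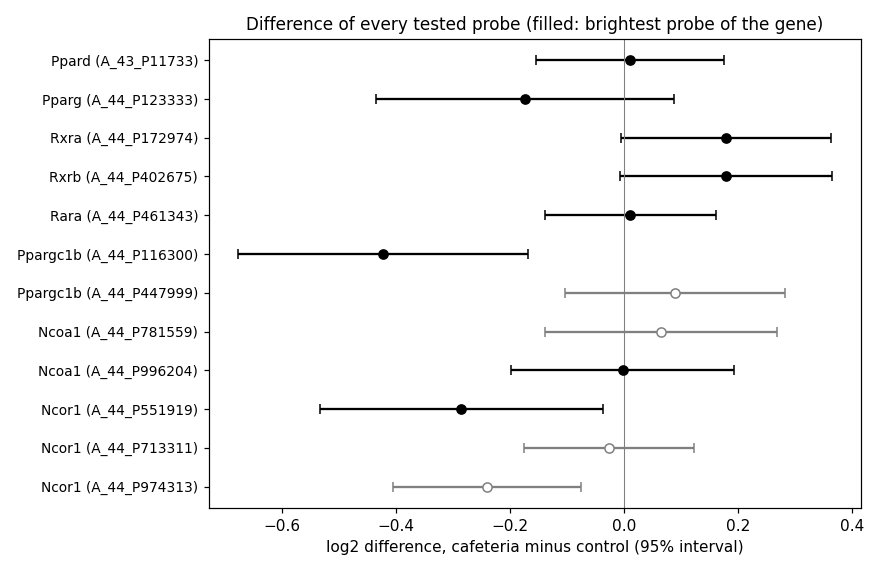
Log2 difference, cafeteria minus control, with its 95% interval (x axis) for each of the 12 tested probes (y axis), filled for the brightest probe of a gene. The probes of Ppargc1b lie on opposite sides of 0, and 2 of the 3 Ncor1 probes lie below 0 with the interval.

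**Figure D4:**
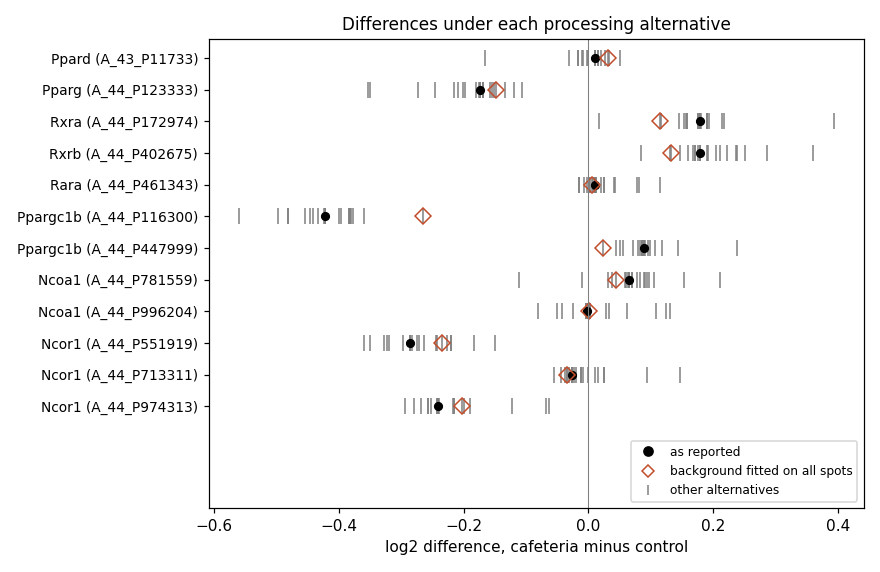
Log2 difference (x axis) of each tested probe (y axis) as reported, with the background fitted on all spots, and under the other processing alternatives. Points of Pparg, Ppargc1b (A_44_P116300), Ncor1 (A_44_P551919 and A_44_P974313), Rxra and Rxrb stay on 1 side of 0, with Rxra down to 0.02 and Ncor1 A_44_P974313 up to -0.06. Those of the dimmer Ppargc1b probe (A_44_P447999) also stay on 1 side, above 0, down to 0.02.

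The genes whose ratios most resembled those of the receptors over the 9 arrays were sought among 10409 genes with a symbol. For Pparg these were Ifit3 (Pearson correlation 0.97) and C1galt1 (0.93). For Rxra they were Bpgm (0.95) and Rpusd4 (0.94), and for Ppard Lrrc27 and B4galt4 (0.92 and 0.91). These are the top values of a very large search over 9 arrays and describe these arrays alone. Ppara was not measured.

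Companion genes of the pathway were counted by list, with no list tested as a set. The lists were chosen with earlier results of these data known, so their counts describe these arrays and are no independent support. Among 46 genes known as PPAR targets, 34 were measured. None passed the adjusted threshold, but at an unadjusted p under 0.05 the counts were 6 higher and 0 lower, against 1.89% and 3.36% of all genes. The higher count was 4 to 7 with each animal left out in turn, 4 without control 4, cafeteria 4 or cafeteria 7, and 2 with slide as a block. Their median difference was 0.08, against 0.0075 over all genes, and 26 of 34 were above 0, against 52.9% of all genes. The 6 were Slc27a2, Cpt1a, Angptl4, Slc25a20, Acaa2 and Acads, which take up, activate or oxidise fatty acids, except Angptl4, a secreted inhibitor of lipoprotein lipase. Group values did not overlap, with cafeteria higher, for 3 of the 34 (Slc27a2, Cpt1a and Slc25a20), against 0.819% of all genes. Angptl4, Acaa2 and Acads were outside the preset selection and were named after their values were seen. Markers of erythroid cells differed the same way (median difference 0.60), and their part in these differences was not tested.

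Slc27a2, which activates very long-chain fatty acids in the peroxisome, had log2 ratios of 0.96, 0.52, 1.38, 0.10 and 0.49 in cafeteria animals, against -0.32, -5.81, -4.84 and -5.15 in control animals. Control 1 lay near the cafeteria animals and the other controls lay far below. The difference was 4.72 (SE 0.93), limma adjusted p = 0.394. It was 4.13 to 5.96 with each animal left out in turn, the highest without control 1, and 3.26 with slide as a block. The second Slc27a2 probe gave 4.07 (SE 0.78).

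Cpt1a, the carnitine palmitoyltransferase that controls entry of fatty acids into mitochondria, had log2 ratios of 0.00, 0.33, 0.01, 0.27 and 0.08 in cafeteria animals, against -0.35, -0.29, -0.56 and -0.59 in control animals. All cafeteria values were above all control values, and the difference was 0.59 (SE 0.10), limma adjusted p = 0.394. Slc25a20, the carnitine-acylcarnitine carrier, had log2 ratios of -0.12, 0.06, -0.03, 0.15 and 0.02 in cafeteria animals, against -0.24, -0.13, -0.17 and -0.51 in control animals. The groups met at the edge without overlapping, and the difference was 0.28 (SE 0.09), limma adjusted p = 0.628. With each animal left out in turn it was 0.19 to 0.32. The dehydrogenases of fatty acid oxidation Acadm and Acadvl differed by 0.15 (SE 0.11) and 0.13 (SE 0.08), both with overlapping groups, and without cafeteria 1 by 0.07 and 0.08. Acadm differed by 0.08 without control 7, and Acadvl by 0.28 with slide as a block. The fatty acid receptor Cd36 and the uncoupling protein Ucp2 differed by 0.15 (SE 0.21) and 0.08 (SE 0.14), with ranges of 0.03 to 0.28 and -0.06 to 0.18 as each animal was left out in turn, the lowest of Cd36 without cafeteria 10 and of Ucp2 without control 7, and values of -0.04 and -0.03 with slide as a block. Me1, the malic enzyme, had the most negative difference of the list, -0.50 (SE 0.36). It was -0.25 without cafeteria 7 and -0.21 without control 4, and its sign turned with slide as a block, at 0.17. Pdk4 was not above background on at least 4 arrays, and Plin2 was not matched to a probe.

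Among the other partners of RXR and RAR, 14 of 23 were measured, none passed at either p, and 11 were above 0, with a median of 0.10. Rxrg differed by 0.30 (SE 0.20), Rarb by 0.15 (SE 0.09), the LXRs Nr1h2 and Nr1h3 by 0.15 (SE 0.07) and 0.09 (SE 0.14), and the thyroid hormone receptor Thra by -0.17 (SE 0.09). With the background fitted on all spots Rxrg was at 0.18 and Rarb at 0.08. Rxrg was at 0.17 without cafeteria 1, 0.19 without control 4 and 0.13 with slide as a block. Rarb was at 0.07 without control 4, Nr1h3 at -0.02 without cafeteria 4 and Thra at -0.11 without cafeteria 13. The ends of the list were Rora at 0.30 (SE 0.20) and Nr4a2 at -0.23 (SE 0.16). Cafeteria 13 stood at 1.01 for Rora, and the difference was 0.12 without that animal and 0.08 with slide as a block. Nr4a2 was at -0.11 without control 1, -0.13 without cafeteria 1, -0.35 without control 4 and -0.56 with slide as a block. Vdr was not above background on at least 4 arrays, and Rarg was not matched to a probe.

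Among further coactivators and corepressors, 23 of 28 were measured, none passed the adjusted threshold, and 3 were lower and 0 higher at an unadjusted p under 0.05, against 3.36% and 1.89% of all genes. With each animal left out in turn 1 to 3 were lower, 1 without cafeteria 7 or cafeteria 13, and 0 to 1 higher, the 1 without control 7, while 1 was lower with slide as a block. Those 3 were Tbl1x, a subunit of the Ncor1 complex, at -0.57 (SE 0.18), Nrip1, a corepressor of lipid genes, at -0.31 (SE 0.12) and Ncoa2 at -0.26 (SE 0.11). Nrip1 was at -0.12 with slide as a block, -0.20 with the background fitted on all spots and -0.66 from the scanner log ratio. The second Tbl1x probe gave -0.12 (SE 0.13). Further subunits of the corepressor complex differed by -0.04 (SE 0.07) for Hdac3 and -0.24 (SE 0.11) for Tbl1xr1. The acetyltransferases Crebbp and Ep300 differed by 0.03 (SE 0.10) and 0.10 (SE 0.09), Ncoa3 by -0.07 (SE 0.10), the Mediator subunit Med1 by -0.03 (SE 0.07), the deacetylase Sirt1 by 0.05 (SE 0.07), and Kat2b, the top of the list, by 0.16 (SE 0.11). Tbl1xr1 was at -0.13 without control 4 and -0.11 with the background fitted on all spots. Without control 13 Ep300 was at 0.05, and Kat2b was at 0.07 without control 1. Probes disagreed for some of these genes, since the next brightest probe gave -0.42 (SE 0.14) for Crebbp and -0.01 (SE 0.10) for Tbl1xr1. The median over the list was -0.02, and -0.02 to 0.03 with each animal left out.

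Among 17 genes of retinoid metabolism and retinoic acid response, 9 were measured, and none passed the adjusted threshold. Of the 9, 8 were above 0, against 52.9% of all genes, and the median was 0.10. The count above 0 was 6 without cafeteria 1 and 7 without control 7 or control 13. At an unadjusted p under 0.05, 1 was higher and 0 lower, against 1.89% and 3.36% of all genes. Tgm2, a transglutaminase induced by retinoic acid, had log2 ratios of 0.23, 1.47, 0.09, 0.45 and -0.06 in cafeteria animals, against -0.94, -0.56, -0.32 and -0.97 in control animals. Every cafeteria animal lay above every control, and the difference was 1.13 (SE 0.28), limma adjusted p = 0.5. With each animal left out in turn the Tgm2 difference was 0.88 to 1.26. The retinal reductase Dhrs3 differed by 0.21 (SE 0.15) (0.31 without cafeteria 1 and 0.12 without control 1), the retinol dehydrogenase Rdh10 by 0.10 (SE 0.07) and the binding protein Crabp2 by -0.02 (SE 0.11).

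Of 16 mitochondrial genes known as PGC-1 targets, 15 were measured, with none past either p and a median of 0.01. Tfam, the mitochondrial transcription factor, differed by 0.05 (SE 0.06), Esrra by 0.09 (SE 0.08) and cytochrome c (Cycs) by 0.02 (SE 0.09). The ends of the list were Uqcrc1 at 0.16 (SE 0.13) and Sod2 at -0.60 (SE 0.39). Uqcrc1 was at 0.04 without control 7 and 0.09 with the background fitted on all spots, and its sign turned with slide as a block, at -0.06. For Sod2, control 4 stood at 1.82, and the difference was -0.21 without that animal and -0.15 with slide as a block. Nrf1 was not matched to a probe.

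**Figure D5:**
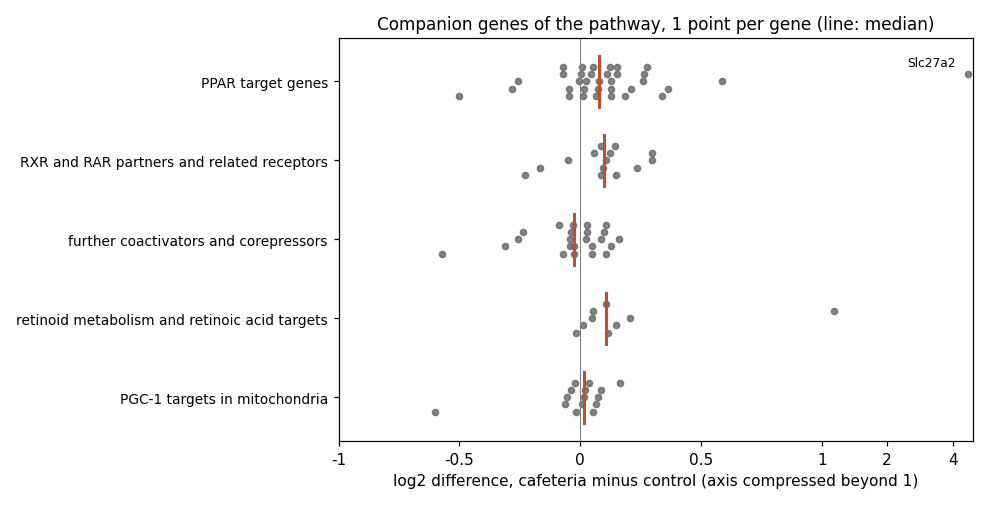
Log2 difference, cafeteria minus control (x axis, compressed beyond 1), of each measured gene of the 5 companion lists (y axis), with the median of the list as a line. Slc27a2 stands at 4.72 and Tgm2 at 1.13, and the medians lie between -0.02 and 0.10.

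Markers of blood cells varied with the groups too, and in bulk RNA fewer cells of a type and less RNA per cell cannot be told apart. Markers of erythroid cells were measured for 8 of 10 genes, and all 8 were higher in cafeteria animals at an unadjusted p under 0.05, with a median difference of 0.60, against 1.89% of all genes. That count was 6 without cafeteria 1 or cafeteria 4. It was also 6 with slide as a block and with the background fitted on all spots. The mean log2 ratio of the 8 erythroid markers per array was -0.56 to -0.01 in cafeteria animals, against -0.96 to -0.71 in control animals. T cell markers (13 of 14 measured) had a median difference of -0.13 (-0.07 without cafeteria 13 and -0.23 without cafeteria 1), with all 13 below 0, 1 of them at an unadjusted p under 0.05, and arrays from -0.52 to 0.13 in cafeteria animals, against -0.20 to 0.16 in control animals. For cytotoxic T and NK cell markers (9 of 10 measured) the median difference was 0.30 (0.17 without cafeteria 7). Of the 9, 4 were higher at an unadjusted p under 0.05, 2 without control 4 or control 7, and 0 with slide as a block, with arrays from -0.15 to 0.50 in cafeteria animals and from -0.36 to -0.09 in control animals. Of 11 neutrophil markers, 6 were measured. Mmp8, Ltf, Cxcr2 and Mpo were not above background on at least 4 arrays, and Elane was not matched to a probe. The other median differences were 0.26 for B cells, -0.07 for monocytes, -0.10 for neutrophils, -0.45 for platelets and 0.18 for the 2 measured adipocyte markers. Of these lists, 1 monocyte marker was lower at an unadjusted p under 0.05, against 3.36% of all genes. All 8 measured B cell markers were above 0 and all 8 platelet markers below 0, against 52.9% of all genes above 0. At that p, 0 B cell markers were higher, but 7 were without control 4 and 5 without cafeteria 1. For platelet markers 0 were lower, and 5 with a replicate block. Platelet markers averaged 1.26 on the array of control 4, and their median difference was -0.06 without it. Adipocyte markers averaged 1.29 on that of cafeteria 4, and theirs was -0.20 without it. Monocyte markers gave 0.03 without cafeteria 1, and B cell markers 0.42 without control 4. The part of cell composition in the differences of the receptors and cofactors was not tested.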

How the data were processed

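Agilent 2-colour arrays of 9 PBMC samples (5 cafeteria, 4 control) were analysed. The deposited scanner files give spot intensity and local background of both dyes, per the file headers read by Agilent Feature Extraction 9.5.1.1, with positions on rn4. They also hold a deposited log10 ratio of Cy5 over Cy3, normalized by that software. A further table deposited by the authors holds log2 values that rank spots as Cy5 does (rank correlation 0.993 to 0.999). Its array medians run from 9.40 to 9.69, and the role of the reference in it is not known.

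Background was corrected by normexp (offset 50), ratios were normalized within arrays by loess with controls given no weight, outlier spots were left out, and spots of a probe were averaged. In the first pass normexp was fitted on all spots. On some arrays up to 8 spots lay at least 50 below their local background in a channel, down to -65231 in Cy5, and these set the fit: a Cy5 spot at background came out at 717 on control 4 and 1206 on cafeteria 4, against 10.2 on control 1. That shrank ratios of dim probes toward 0, and the SD between Pparg spots was 0.0088 on control 4 and 0.0074 on cafeteria 4. Spots 50 or more below background were therefore left out of the fit and the data, which brought the level at background to 10.2 to 18.6 on every array. This change was made after the differences from the first pass, member genes included, had been seen. Thresholds of 100 and 25 were inspected beside 50, by the level at background only. The test, the samples and the lack of covariates were kept.

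Probes with Cy5 well above background on at least 4 arrays (in at least 50% of a probe's spots) were tested with limma 3.58.1 in R 4.3.3 (with statmod 1.5.0 and data.table version 1.17.8), adjusted by Benjamini-Hochberg over all 25808. The fit was tested on simulated data. A gene is read from whichever of its probes was brightest on average. The files' gene names were updated through RefSeq (GRCr8), which matched 19443 of 41012 probes (47.4%), and 81 names were dropped because the chromosomes disagreed. Figures used Python 3.11.15 with matplotlib 3.10.9 and pandas 2.3.3.

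The genes and lists were chosen with earlier results of these data known. All probes of the 10 genes are given. A preset selection of each companion list is named, with its extreme genes and any past the adjusted threshold (some of the selection is not reported here), and for each measured PPAR and Rxra the 2 genes most correlated with it. Nothing says how animals shared cages or litters. The p-values set each difference against the variation between animals and treat the animals as independent. If cages or litters were shared, they may be too small. The number of arrays limits the precision. Alternatives covered centring, background, the scanner ratio, Cy5 alone, the authors' table, the filter, outlier spots, slide, replicate number and each animal left out.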

Additional observations from a re-analysis of the deposited data

Results flagged for a closer look

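Of 24 groups of probe values examined (12 probes in each diet), 1 held an animal far from the others of its diet. Chance alone would give about 1 in 20. On the dimmer Ncoa1 probe (A_44_P781559), control 7 had a log2 ratio of -0.21, while the other control animals lay between 0.07 and 0.10. The brighter Ncoa1 probe had its highest control value, 0.35, in the same animal. Without control 7 the difference of the dimmer probe was -0.01, against 0.06 with it.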

How the results depend on the processing

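Under all 23 alternatives 0 of the member probes tested passed the adjusted threshold. The lowest adjusted p of a member probe over them was 0.224, for Ppargc1b (A_44_P116300). With the background fitted on all spots, as in the first pass, 2 of 25808 probes passed, neither of them a member, and 4.4% had an unadjusted p under 0.05. Member differences then were -0.27 for Ppargc1b (A_44_P116300), -0.23 and -0.20 for Ncor1 (A_44_P551919 and A_44_P974313), -0.15 for Pparg, 0.11 for Rxra and 0.13 for Rxrb. Leaving out spots 100 or 25 below background gave -0.42 for Ppargc1b in both cases. The threshold of 50 behind the reported values and those of 100 and 25 were chosen after seeing the data, and the first pass was then kept as an alternative. Among the PPAR targets, 0 to 1 genes passed when each animal was left out in turn, the 1 without control 1. Among companion genes named with a difference of at least 0.1 in size, the sign turned for Me1, Uqcrc1 and Cd36 with slide as a block and for Rarb from Cy5 alone (-0.0093). Member probes whose direction turned all had a reported difference below 0.1 in size. Ppard was at -0.0079 with median centring, -0.010 without background correction, -0.17 with the scanner ratio and -0.017 with a replicate block, and -0.031 to 0.051 with each animal left out. Rara was at -0.0072 with the authors' values centred and -0.015 with a replicate block, and -0.015 to 0.041 with each animal left out. Ncoa1 (A_44_P996204) was at 0.11 with median centring, 0.029 with the scanner ratio, 0.13 with the authors' values, 0.0035 with these centred, 0.0016 with the background fitted on all spots, 0.13 with slide as a block and 0.0034 with a replicate block, and -0.050 to 0.062 with each animal left out. Ncoa1 (A_44_P781559) was at -0.11 with slide as a block and -0.010 to 0.11 with each animal left out. Ncor1 (A_44_P713311) was at 0.094 with median centring, 0.016 with the scanner ratio, 0.15 with the authors' values, 0.024 with these centred and 0.026 with slide as a block, and -0.055 to 0.010 with each animal left out. The authors' uncentred values shift the median of all probes by 0.13, and median centring by 0.06. Replicate numbers are shared by both diets, and whether they pair animals is not known. Deviations of animals with the same number had correlations of -0.06, 0.03, 0.13 and -0.18, which cannot show whether cages or litters were matched. The replicate block passed 0 probes. With slide as a block 1 residual degree of freedom remains. The cause of each turn was not tested.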
